A study of Mus musculus with 6 samples.

Results

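HCN and TRPC cation channel genes were compared between VMHpvlm and VMHpvll, which are neighbouring parts of the ventrolateral ventromedial hypothalamus (VMH). The set held 8 genes of the 47480 in the table, chosen by symbol: Hcn2, Hcn3, Hcn4, Trpc1, Trpc4, Trpc5, Trpc6 and Trpc7. Both regions came from female mice of the VgluT2-cre/Ai6 background, with no treatment named and no age given in the sources used here. In these mice the VgluT2 (Slc17a6) promoter drives cre, and the Ai6 reporter then marks glutamatergic neurons and cells that once expressed VgluT2. The areas were cut from frozen coronal sections by laser capture, so a library holds every cell type of the area and not sorted neurons. Each region had 3 libraries, and library titles of both regions begin with F19, F20 or KH_161103. Whether libraries with a common name come from the same animal is not stated. The labels also do not say that different names are different animals, so the spread that p-values measure here may be technical.

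HCN channels open when a neuron hyperpolarises and carry the inward pacemaker current. Cyclic AMP bound to the intracellular domain eases the opening of Hcn2 and Hcn4. HCN channels assemble as tetramers, of which Hcn2 is a widespread brain subunit and Hcn4 is best known from the sinoatrial node. TRPC channels are non-selective cation channels that open downstream of receptors coupled to Gq and phospholipase C. Trpc4 and Trpc5 are close relatives that assemble with each other and with Trpc1, whereas Trpc6 and Trpc7 belong to a second group opened by diacylglycerol. In the hypothalamus TRPC channels, Trpc5 among them, are known for the slow depolarisation of neurons by leptin and by serotonin.

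Depth ran from 7157831 to 11293159 recovered reads per library, and Gm42418, the most counted transcript, took between 11.65% and 17.86% of them. Within a region, libraries differed beyond sampling noise in a sum over genes that includes Gm42418 (chi-square per degree of freedom 5.56 to 10.04). Highly counted genes weigh most in this sum, and it does not give the spread of a typical gene. Levels are normalised read counts, that is, counts scaled by a size factor of each library, and are given as mean ± SD (n = 3 libraries per region). A log2 difference is the level in VMHpvlm minus that in VMHpvll, taken as log2(value + 1), a scale that understates changes of low genes. It is given with the limma standard error (SE) and the Benjamini-Hochberg adjusted p over 14522 genes, those averaging at least 10 across the libraries. A gene was called at an adjusted p below 0.05. The VMH label was checked on Nr5a1, the VMH transcription factor, which was at 308 ± 19.5 in VMHpvlm and 31.5 ± 6.73 in VMHpvll. It was thus 9.77-fold lower in VMHpvll, with as few as 18 reads in a library, so the check is weak for that region.

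All 8 genes passed the filter on low values, and 3 were called, against 20% of all tested genes. Trpc4 and Trpc5 were higher in VMHpvll (9.48% of all tested genes were called in that direction) and Hcn2 was slightly higher in VMHpvlm (10.5%). The median difference of the 8 was -0.27, against 0.00 over all tested genes. The 3 libraries of one region lay wholly above those of the other for 5 of the 8, which was the case for 28% of all tested genes. Of these 5, only Hcn2 was higher in VMHpvlm (14.5% of all tested genes), and Hcn4, Trpc4, Trpc5 and Trpc6 were higher in VMHpvll (13.5%). The KH_161103 libraries held 39 reads of Trpc6 each (35.4 and 35.6 after scaling), so its separation rests on the size factors. On recovered whole reads, edgeR called 3 of the 8 and 19.8% of all tested genes, and DESeq2 called 2 of the 8 and 8.47%. The bulk values cannot tell a smaller number of cells of a type from less RNA per cell.

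The promoters of the called genes are shown because Trpc4 and Trpc5 were higher in VMHpvll and Hcn2, whose call was lost under 10 of 16 alternative settings, was higher in VMHpvlm. The areas also differ in Nr5a1, which encodes the factor SF-1, and in the oestrogen receptor Esr1 (513 ± 74.0 in VMHpvlm and 1490 ± 63.8 in VMHpvll). RefSeq tables on GRCm38.p6 held 7 of the 8 genes, all but Hcn3. The sequences run 5′ to 3′ on the strand of the gene and end before the first annotated exon, and capitals mark the nuclear receptor core motif GGTCA on either strand, extended to the whole SF-1 motif CAAGGTCA where that matched. They lie at chr10:79716384-79716633 (plus strand) for Hcn2, chr3:54155807-54156034 (plus strand) for Trpc4 and chrX:144688181-144688430 (minus strand) for Trpc5.
Hcn2: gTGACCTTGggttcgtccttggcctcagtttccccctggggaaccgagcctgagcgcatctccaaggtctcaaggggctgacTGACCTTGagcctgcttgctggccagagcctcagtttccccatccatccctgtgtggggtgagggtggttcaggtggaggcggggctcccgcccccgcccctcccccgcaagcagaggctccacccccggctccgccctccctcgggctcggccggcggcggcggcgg
Trpc4: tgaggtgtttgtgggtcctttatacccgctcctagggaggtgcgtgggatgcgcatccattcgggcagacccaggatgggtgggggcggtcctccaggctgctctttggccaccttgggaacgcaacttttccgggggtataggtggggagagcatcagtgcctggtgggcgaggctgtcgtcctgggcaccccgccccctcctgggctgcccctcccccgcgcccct
Trpc5: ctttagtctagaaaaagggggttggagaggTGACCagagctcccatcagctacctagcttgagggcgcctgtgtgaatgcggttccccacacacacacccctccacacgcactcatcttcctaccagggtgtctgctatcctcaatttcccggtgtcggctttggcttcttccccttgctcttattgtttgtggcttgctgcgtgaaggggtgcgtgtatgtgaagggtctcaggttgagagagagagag

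Motifs and base composition were counted on both strands in the 250 bases before the RefSeq start. For Trpc4 the printed sequence is the first 228 bases of that window, since the rest lies in the annotated first exon. CAAGGTCA occurred at 2 positions of the Hcn2 window, both on the minus strand, and in none of the other 6 windows. At least 1 copy stood in 1.33% of the 32851 promoter windows of all genes, and 2 or more in 4 windows (0.012%). Windows with 2 or more were counted for this motif alone, at the number found in Hcn2. That share is a description and not a test. The core motif GGTCA, which every CAAGGTCA contains, occurred 1 time in the Trpc5 window and 0 times in the Trpc4 window, and 35.24% of all windows held it. The whole oestrogen response element, in which that core is followed after 3 bases by its reverse complement, was in none of the 7 windows and in 0.06% of all. TGACGTCA, the cyclic AMP response element, was also in none of the 7 and in 1.55% of all. TATAAA occurred in the Trpc4 window alone of the 7, on the minus strand, and in 12.37% of all. The Hcn2 and Trpc4 windows were rich in G and C (70.4% and 66.4%) and that of Trpc5 less so (54.4%), against a median of 52.4% over all windows. These matches are letters in a window and were not tested as binding sites.

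Trpc4 had the largest difference of the 8 genes. It was counted at 230.3, 216.5 and 237.1 in the F19, F20 and KH_161103 libraries of VMHpvlm and at 548.5, 530.2 and 569.7 in those of VMHpvll. Every VMHpvll library was more than double every VMHpvlm library, and the libraries within a region lay close together. The level was 2.41-fold higher in VMHpvll, at 549.5 ± 19.8 against 227.9 ± 10.4, with a log2 difference of -1.27 ± 0.085 SE (limma Benjamini-Hochberg adjusted p = 3.83e-16). The pairs gave -1.25, -1.29 and -1.26, so this difference was nearly the same in each. Of all tested genes, 153 (1.05%) had a difference further toward VMHpvll. Within a region Trpc4 varied by 4.58% (VMHpvlm) and 3.60% (VMHpvll) between libraries as a coefficient of variation, less than the 7.33% and 4.62% that read counting alone gives. On mm10 the gene lies on chromosome 3 from 54156035 to 54318471, and its exons overlap no other annotated gene.

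Trpc5 moved the same way by a smaller amount. It was counted at 510.6, 596.9 and 533.1 in the F19, F20 and KH_161103 libraries of VMHpvlm and at 805.8, 929.3 and 911.1 in those of VMHpvll. The lowest VMHpvll library was above the highest VMHpvlm library, and F20 was the highest library in both regions. The level was 1.61-fold higher in VMHpvll (882.0 ± 66.7 against 546.9 ± 44.7, log2 difference -0.69 ± 0.064 SE, limma Benjamini-Hochberg adjusted p = 9.35e-12). The pair differences were -0.66, -0.64 and -0.77. Trpc5 lies on chromosome X from 144381671 to 144688180. Within that span lies Trpc5os on the opposite strand, which was listed at 0 in all 6 libraries.

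Trpc1, the partner of Trpc4 and Trpc5, was not called. Its counts were 264.1, 205.4 and 240.7 in VMHpvlm and 242.9, 244.2 and 256.5 in VMHpvll, in the order F19, F20 and KH_161103. The regions overlapped, and the F19 pair differed in the opposite direction from the other pairs. The log2 difference was -0.07 with a 95% interval from -0.28 to 0.14 (limma Benjamini-Hochberg adjusted p = 0.698), and it turned to 0.01 without the F20 pair. The interval covers changes of either sign and does not show equal levels.

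**Figure D1:**
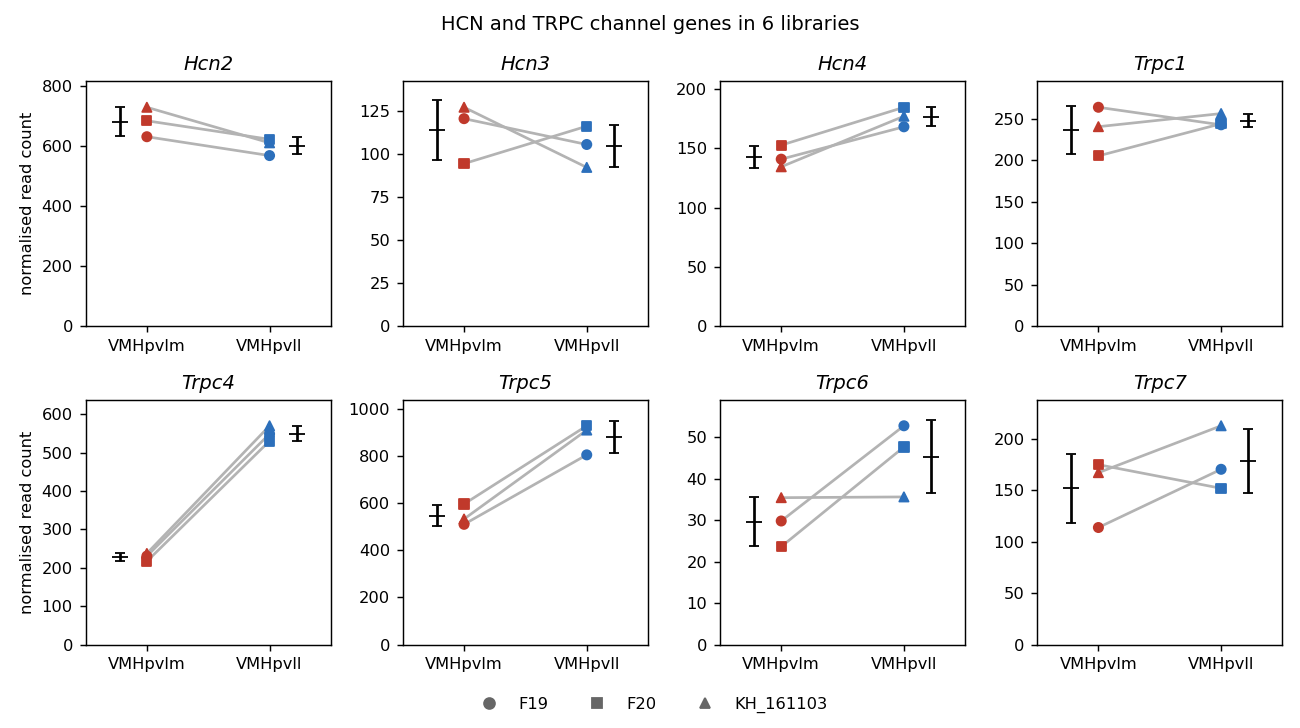
Normalised read counts (y axes, linear from 0) of the 8 HCN and TRPC genes in the 6 libraries, with red for VMHpvlm, blue for VMHpvll, marker shapes and grey lines for the names shared by libraries, and black bars for the mean and SD of 3 libraries. Trpc4 and Trpc5 rise from VMHpvlm to VMHpvll in 3 of 3 pairs with no overlap, whereas the pairs of Hcn3, Trpc1 and Trpc7 differ in direction.

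Of the diacylglycerol-opened group, Trpc6 and Trpc7 were not called. Trpc6 was the lowest of the 8, with between 17 and 48 recovered reads per library. It was counted at 29.8, 23.6 and 35.4 in VMHpvlm and at 52.8, 47.7 and 35.6 in VMHpvll for F19, F20 and KH_161103. F19 and F20 were higher in VMHpvll while the KH_161103 libraries were nearly equal, at 39 reads each. The exact Poisson 95% interval of the KH_161103 value was 25.2 to 48.4 in VMHpvlm and 25.3 to 48.7 in VMHpvll, which covers counting error only. The log2 difference was -0.60 ± 0.254 SE (limma Benjamini-Hochberg adjusted p = 0.0952), and the between-library variation of 19.98% and 19.4% was close to the counting error of 20.8% and 16.1%.

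Trpc7 was counted at 113.8, 174.9 and 167.1 in VMHpvlm and at 170.4, 151.9 and 212.7 in VMHpvll. It was higher in VMHpvll in the F19 and KH_161103 pairs and lower in the F20 pair, with differences of -0.58, -0.35 and 0.20, and the regions overlapped. The fitted difference was -0.24 with a 95% interval from -0.51 to 0.02 (limma Benjamini-Hochberg adjusted p = 0.22). Without the F20 pair it was -0.46 and was called (limma Benjamini-Hochberg adjusted p = 0.00932). Trpc7 varied more than read counting alone gives, by 21.9% against 9.18% in VMHpvlm and by 17.5% against 8.28% in VMHpvll. Trpc2 was listed at 0 in all libraries, and its exons are shared with the readthrough gene Xntrpc.

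Hcn2 was the only one of the 3 HCN genes called. Its counts were 631.2, 684.3 and 729.3 in VMHpvlm and 568.3, 622.5 and 610.7 in VMHpvll for F19, F20 and KH_161103. Every VMHpvlm library was above every VMHpvll library, by a narrow margin between F19 of VMHpvlm and F20 of VMHpvll. The level was 1.14-fold higher in VMHpvlm (681.6 ± 49.1 against 600.5 ± 28.5, log2 difference 0.18 ± 0.066 SE, limma Benjamini-Hochberg adjusted p = 0.0457), with pair differences of 0.15, 0.14 and 0.26. The call was lost without the pair block (adjusted p = 0.163), by DESeq2 on recovered reads (0.454), without the F19 pair (0.0926) and without the KH_161103 pair (0.346). Over all alternatives tried, 10 of 16 lost the call and the difference stayed between 0.14 and 0.20.

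Hcn4 pointed the other way and was not called. It was counted at 140.9, 152.7 and 134.4 in VMHpvlm and at 168.2, 184.7 and 177.1 in VMHpvll. The VMHpvll libraries were all higher, and the pairs differed by -0.25, -0.27 and -0.40. The level in VMHpvlm was 80.75% of that in VMHpvll (142.7 ± 9.26 against 176.7 ± 8.25, log2 difference -0.31 ± 0.122 SE, limma Benjamini-Hochberg adjusted p = 0.0708), and no alternative brought it past the threshold, the lowest adjusted p being 0.0583. Between-library variation was 6.49% and 4.67%, below the counting error of 9.21% and 8.12%.

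Hcn3 was counted at 120.5, 94.4 and 127.2 in VMHpvlm and at 105.5, 116.2 and 92.2 in VMHpvll. The regions overlapped, with F20 opposite to the other pairs, and the log2 difference of 0.12 had a 95% interval from -0.19 to 0.43 (limma Benjamini-Hochberg adjusted p = 0.669). Without the KH_161103 pair it was -0.05. Exons of Hcn3 overlap those of Pklr on the opposite strand over 711 of 4154 bases, and Pklr was listed at no more than 0.908 in any library. The strand setting of the counting is not given, so whether Hcn3 reads in this overlap were counted is not known. None of the 3 HCN genes was called toward VMHpvll.

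The other genes of the set also lie apart on mm10. Hcn2 spans 79716634 to 79736108 on chromosome 10, Hcn3 spans 89146074 to 89160196 on chromosome 3 and Hcn4 spans 58823412 to 58863175 on chromosome 9. Trpc1 spans 95705082 to 95750375 and Trpc6 spans 8544142 to 8680741, both on chromosome 9, and Trpc7 spans 56773113 to 56895993 on chromosome 13. All 8 are annotated as protein-coding, and apart from Hcn3 their exons overlap no other annotated gene.

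**Figure D2:**
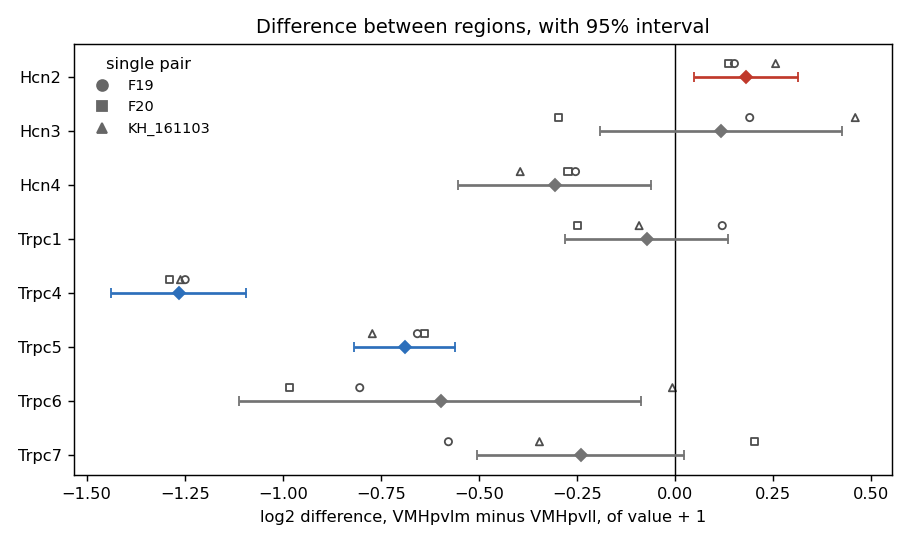
Fitted log2 difference (VMHpvlm minus VMHpvll, value + 1) of the 8 genes, as diamonds with the limma 95% interval, and the difference within each pair as open markers. Red (Hcn2) and blue (Trpc4 and Trpc5) passed an adjusted p below 0.05 and grey did not. The intervals are not adjusted over genes, so those of Hcn4 and Trpc6 leave out 0 without a call.

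Levels can be compared between genes only per length, here as normalised reads per kb of annotated exon. On this scale the highest of the 8 in VMHpvlm was Hcn2 at 213 ± 15.4, followed by Trpc5 at 109 ± 8.92. Trpc7 (39.2 ± 8.58), Trpc1 (29.5 ± 3.68), Trpc4 (28.4 ± 1.30), Hcn3 (27.4 ± 4.17) and Hcn4 (23.3 ± 1.51) came next, and each overlapped its neighbour in this order. Trpc6 was lowest at 5.84 ± 1.17.

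In VMHpvll the order per kb differed, with Trpc4 above Trpc7 and Trpc1, and with Hcn4 above Hcn3. Hcn2 (188 ± 8.92) and Trpc5 (176 ± 13.3) overlapped there, and Trpc4, at 68.4 ± 2.46, came next and was clear of Trpc7 at 46.0 ± 8.04. Trpc1 followed at 30.9 ± 0.934, Hcn4 at 28.9 ± 1.35 and Hcn3 at 25.2 ± 2.89, the last pair overlapping. Trpc6 was again lowest at 8.95 ± 1.74. Exon lengths cover every annotated exon, so a gene with long untranslated ends that are rarely used is set too low. Hcn3 would also be set too low if reads in its overlap with Pklr were not counted.

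The summed level of the 5 TRPC genes was 198.6, 221.3 and 215.9 reads per kb in VMHpvlm and 313.6, 330.3 and 346.4 in VMHpvll for F19, F20 and KH_161103. The VMHpvll sums were all higher. The part of Trpc5 in this sum was 51.4% ± 2.27 in VMHpvlm and 53.3% ± 2.53 in VMHpvll, which overlapped. The part of Trpc4 was 13.4% ± 1.15 against 20.7% ± 0.928, and that of Trpc1 was 14.0% ± 2.50 against 9.36% ± 0.250. The ratio of Trpc4 to Trpc5 per kb was between 0.227 and 0.281 in VMHpvlm and between 0.356 and 0.425 in VMHpvll, without overlap. The sum of the 3 HCN genes was 249.6, 261.9 and 280.9 in VMHpvlm and 230.8, 253.0 and 242.3 in VMHpvll, which overlapped. Hcn2 took 80.7% ± 1.40 of it in VMHpvlm and 77.7% ± 1.06 in VMHpvll, and Hcn4 took 8.86% ± 0.910 and 11.9% ± 0.0175. Read counting alone gives the Hcn4 level in VMHpvll an error of 8.12%, so the SD of 0.0175 understates the uncertainty. These sums and parts cover the genes of the set only, are descriptions and were not tested.

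**Figure D3:**
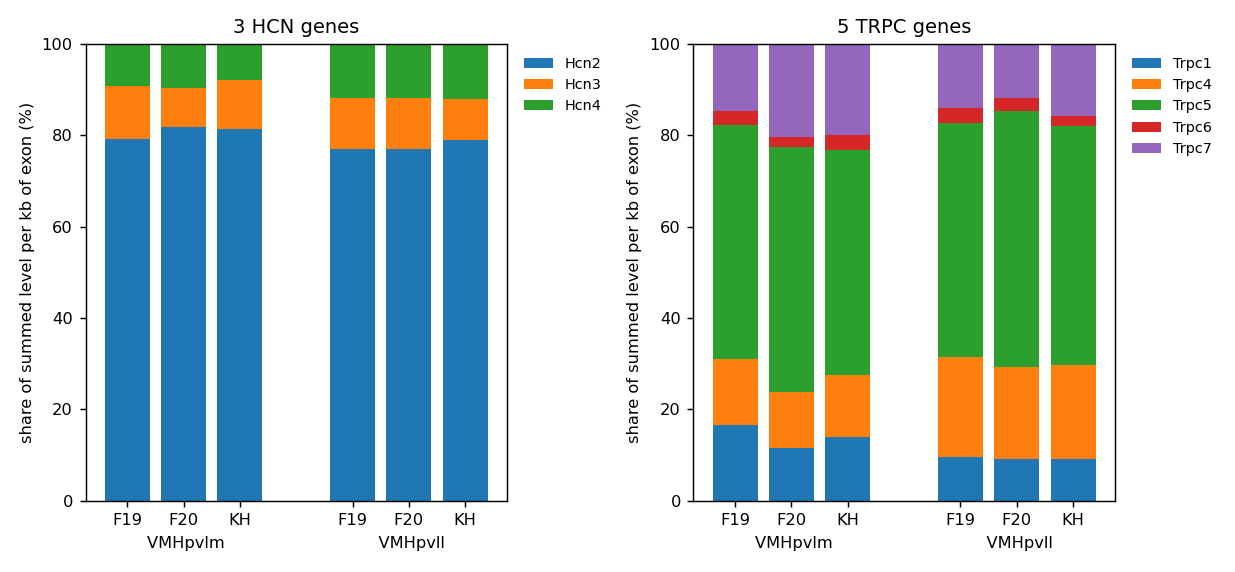
Share of each gene (stacked, y axis in %) in the summed level per kb of exon of the 3 HCN genes (left) and of the 5 TRPC genes (right), 1 bar per library, with VMHpvlm on the left of each panel and KH standing for KH_161103. The part of Trpc4 is between 12.2% and 14.4% in VMHpvlm and between 19.98% and 21.8% in VMHpvll, while Trpc5 takes between 49.2% and 56.1% of the TRPC sum.

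Genes that act upstream of TRPC channels went both ways. Of 11 tested genes for Gq proteins, phospholipases C and IP3 receptors, 3 were called toward VMHpvlm and 2 toward VMHpvll (median -0.05). For this and the following lists, the shares over all tested genes are 10.5% toward VMHpvlm, 9.48% toward VMHpvll and 20% in either direction, with a median of 0.00. Counts of lists this small were not tested against those shares. Plcb1 (1615 ± 72.0 against 942.5 ± 58.7, log2 difference 0.78) and Plcb4 (1490 ± 85.7 against 894.9 ± 58.3, 0.73), phospholipases that Gq activates, were higher in VMHpvlm, the opposite direction from Trpc4 and Trpc5. Exons of Plcb1 overlap 9630028H03Rik on the opposite strand over 178 of 11115 bases, and that gene was listed at no more than 2.98 in any library. The IP3 receptor Itpr1 was also higher in VMHpvlm (0.24). Plcb3 (-0.45) and Itpr2 (-0.22) were higher in VMHpvll. Gnaq, the Gq alpha subunit, was not called (log2 difference 0.08, limma Benjamini-Hochberg adjusted p = 0.208).

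Of 10 tested binding and scaffold proteins of TRPC channels, 2 were higher in VMHpvlm and 1 in VMHpvll (median 0.10). The one higher in VMHpvll was Slc9a3r1, the PDZ scaffold NHERF1 that binds the ends of Trpc4 and Trpc5, at 313.9 ± 43.9 against 174.9 ± 18.4 (log2 difference -0.84, limma Benjamini-Hochberg adjusted p = 2.82e-08). Sestd1 (0.21) and the junctophilin Jph3 (0.17) were higher in VMHpvlm. Of 6 tested genes of store-operated calcium entry, Stim1 (0.34), the calcium sensor of the endoplasmic reticulum, and the channel Orai2 (0.33) were higher in VMHpvlm and the sensor Stim2 (-0.22) in VMHpvll (median 0.08).

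Of 8 tested genes listed as HCN accessory or trafficking proteins, 1 was called in each direction (25% in all, against 20% of all tested genes, median 0.02). Kctd3, a binding partner of Hcn3, was higher in VMHpvlm (789.0 ± 19.95 against 651.2 ± 66.8, log2 difference 0.28). Tnxb, the extracellular matrix protein tenascin-X, was higher in VMHpvll (-1.31), and is not a channel subunit. Pex5l, which encodes the HCN trafficking subunit TRIP8b, was not called (log2 difference 0.05, limma Benjamini-Hochberg adjusted p = 0.701).

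Of 16 tested channel genes related by structure or by current, 4 were called (25%, against 20% of all tested genes). Of 9 tested other TRP channels, 0 were higher in VMHpvlm and 1, Trpm3, in VMHpvll (1140 ± 82.0 against 1334 ± 18.8, log2 difference -0.23). Exons of Trpm3 overlap 2 annotated genes on the opposite strand, C330002G04Rik and Gm27151, which reached at most 1.35 and 11.0. The median of this list was 0.01, and the 12 listed members that were not tested were below a mean of 10. Of 3 tested cyclic nucleotide-gated channels, Cngb1 was higher in VMHpvlm (56.4 ± 13.3 against 31.3 ± 4.22, 0.81). Of 4 genes of the sodium leak channel complex, 2 were higher in VMHpvlm, Unc80 (0.26) and Fam155a (0.26), and 0 in VMHpvll (median 0.20), with Nalcn itself not called (0.10, limma Benjamini-Hochberg adjusted p = 0.0924).

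**Figure D4:**
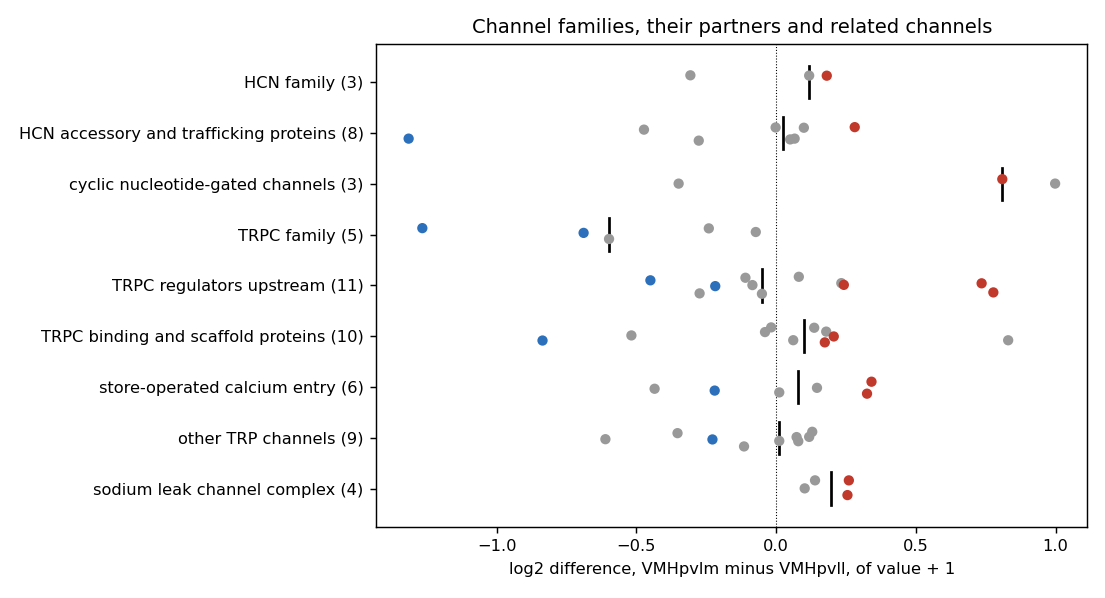
Fitted log2 differences (VMHpvlm minus VMHpvll, value + 1) of the tested genes of 9 lists, with the number tested in brackets and the median as a vertical black line. Genes called toward VMHpvlm are red, those called toward VMHpvll blue, and the others grey. The 5 TRPC genes shown all lie below 0 with a median of -0.60, whereas the phospholipases Plcb1 and Plcb4 lie at 0.78 and 0.73.

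Markers of several cell types differed between the same libraries. All 6 GABAergic markers were called higher in VMHpvll, and their summed level was 2262 to 2464 in VMHpvlm and 3665 to 4264 in VMHpvll. Oligodendrocyte markers (8 of 10 called higher in VMHpvll, sums 11432 to 13135 against 15548 to 16642), precursor markers (4 of 5, sums 1567 to 1786 against 1931 to 2046), astrocyte markers (4 of 8, sums 31453 to 34046 against 37035 to 42149) and vascular markers (6 of 8, sums 1666 to 1892 against 2399 to 2622) went the same way as Trpc4 and Trpc5. Most of the astrocyte sum was Slc1a2 (19437 in VMHpvlm against 24863 in VMHpvll), and Aldoc pointed toward VMHpvlm without a call. Of 8 microglia markers 0 were called, with 1200 to 1321 against 1284 to 1443. By contrast 5 of 10 pan-neuronal markers were called higher in VMHpvlm, though their sums overlapped (74838 to 80577 against 70378 to 75023). Tubb3 (log2 difference -0.10) and Map2 (-0.03), the latter the highest of them, pointed toward VMHpvll without a call. Of 7 VMH neuron markers 5 were called higher in VMHpvlm (sums 10812 to 11228 against 8648 to 9256), with Nptx2 higher in VMHpvll. Slc17a6, the highest of these markers (4665 in VMHpvlm against 4946 in VMHpvll), pointed toward VMHpvll without a call (log2 difference -0.085). No marker of these lists was at 0 in all libraries. The part of these cell types in the differences of the HCN and TRPC genes was not tested.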

How the data were processed

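The deposited table held a normalised signal for 47480 genes in 6 libraries, which the authors made by dividing counts by a size factor of each library, as the values show. The submitters' processing notes name HISAT2, featureCounts and mm10. No version, annotation, scaling tool or strand setting is given in the sources used here. At least 99.995% of non-zero values per library were whole multiples of 1 read, within 0.05 reads, so whole reads were recovered. The channel genes and all lists were chosen with earlier results of these data known. Named genes were the 8 channel genes, called genes with the smallest p per list, and the 3 genes most correlated with the top called channel gene per direction; genes named as not called were added after their values were seen.

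The test was limma 3.58.1 (R 4.3.3) on log2(value + 1) (eBayes with trend and robust, two-sided), with region and pair name as a fixed block, for 14522 genes with a mean of at least 10. With 2 residual degrees of freedom per gene and a prior of 39.9, p-values rest largely on spread shared across genes. Libraries were paired by the names in their titles. Deviations from region means correlated at 0.255, 0.244 and 0.363 between libraries of the same name and between -0.247 and 0.007 otherwise. Deviations sum to 0 within a region, so the values for unlike names follow in part from those for like names. A shared animal and a shared preparation cannot be told apart by these correlations. Alternatives were other pair models, pseudocounts, filters, scalings and variance priors, edgeR 4.0.16 and DESeq2 1.42.0 on recovered reads, and leaving out each pair. The fits were tested on simulated data. Positions and exon lengths came from GENCODE M21 on the same build. Some genes of the lists are not reported here.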

Additional observations from a re-analysis of the deposited data

How the results depend on the processing

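Over all tested genes, 2905 were called with the replicate block and 1800 with no replicate block, 422 with a variance prior without trend and robust, 1230 by DESeq2, and between 1776 and 2868 when 1 pair was left out, the lowest without KH_161103. Of the 8 channel genes, 3 were called, and between 2 and 4 under the 16 alternatives. Trpc4 (adjusted p at most 0.0258) and Trpc5 (at most 0.0405) were called under all 16, at -1.28 to -1.24 and -0.71 to -0.65. Hcn2 lost its call under 10, and apart from the 4 named with its values these were a random pair effect (0.063), a minimum mean of 1 (0.0634), no filter (0.0916), the same upper quartile (0.0614), TMM scaling (0.0544) and the plain variance prior (0.234). The cause was not tested. Trpc7 gained a call without F20, Hcn3 ranged from -0.053 (without KH_161103) to 0.325 (without F20), and Trpc1 from -0.17 (without F19) to 0.014 (without F20). Each of these fits used fewer libraries. The fixed block changed no call among the 8 except that of Hcn2. Trpc6 had no value with a minimum mean of 50. Leaving out 1 library of a pair gives the same difference as leaving out its pair. The depth behind Trpc6 was 17 to 48 reads per library, the fewest of the 8, and its difference without KH_161103 was -0.89.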

Other observations

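The genes most like the called channel genes were ranked by Pearson's r of log2(value + 1) over the 6 libraries, among 11126 other genes with a mean of at least 50. The 6 libraries are 2 regions in 3 pairs, so r mostly follows the region difference, and it is given as a description. Nearest to Trpc4 were Efnb2, the membrane ligand ephrin-B2 (r = 0.9993), Pgr, the progesterone receptor (0.999), and Kcnq5, a potassium channel subunit (0.9987). Efnb2 was at 552.0 in VMHpvlm and 1020 in VMHpvll, Pgr at 1229 and 3410, and Kcnq5 at 579.2 and 1651, and 323 genes reached an r of 0.95 with Trpc4. Nearest to Hcn2 were Zxdc (0.9944), Reep1 (0.9911) and Pcf11 (0.9897). Of these only Pcf11 was called (log2 difference 0.24, limma Benjamini-Hochberg adjusted p = 0.006), and 81 genes reached an r of 0.95 with Hcn2.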
